A study of Mus musculus with 8 samples.

Results

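The immunoglobulin variable genes are the germline segments from which B cells assemble the antigen-binding part of an antibody. They were chosen by symbol and level: rows of the deposited table whose gene name begins with Igkv (kappa light chain), Ighv (heavy chain) or Iglv (lambda light chain), with a mean over all 8 libraries of at least 0.5 TPM (a transcript abundance per length, scaled to a common sum in each library). That left 172 of 186 variable gene rows, out of 27532 genes listed, and 14 rows below the mean were not tested. The 172 members were 80 Igkv, 89 Ighv and 3 Iglv genes, of which 170 are annotated as variable genes and 2 as pseudogenes. The mean level chose the members, so the level itself is given as a description. Just inside the threshold lay Ighv5-2 at 0.680, Ighv1-2 at 0.702 and Igkv1-122 at 0.734 TPM, and just outside it Igkv4-62 at 0.484, Igkv9-129 at 0.496 and Ighv1-38 at 0.499 TPM.

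The data come from bulk RNA sequencing of the vomeronasal organ, the chemosensory organ of the nasal septum that detects pheromones, in adult mice. The first group was 4 Tex15 heterozygous mice (libraries Het1 to Het4) and the second 4 Tex15 knockout mice (KO1 to KO4), compared to ask what differs when Tex15 is lost. The controls carry the Tex15 allele in heterozygous form, and no wild-type animal was analysed here. Het1, KO2, KO3 and KO4 were male and Het2, Het3, Het4 and KO1 female. Ages were 11.4 weeks for Het1, 14.6 weeks for Het2, 12.1 weeks for KO4 and 11.9 weeks for the other 5 mice. The titles of Het1 and Het2 carry numbers of a lower series than those of the other 6 libraries, and the lower series held no knockout.

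In an antibody-producing cell, recombination joins 1 heavy chain variable segment to D and J segments and 1 light chain variable segment to a J segment, and the clone descended from that cell keeps both choices. Plasma cells, the end stage of this lineage, transcribe the rearranged genes at very high levels. At mucosal surfaces many of them make IgA, which is joined by the J chain and carried across the epithelium by the polymeric immunoglobulin receptor, while IgG is the main antibody class of blood and tissue fluid. The level of a variable gene in a bulk library thus adds up all the cells that chose it.

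The annotated members lie in 3 clusters of the mouse genome (GRCm38). The Igkv members span chr6:67609713-70704177, the Ighv members chr12:113578504-116000461 and the Iglv members chr16:19085017-19260859. Their exons sum to 338 to 480 bases, with a median of 359.5, and apart from the 2 pseudogenes they are annotated as coding for a signal peptide and a variable domain. Many are close copies of each other. The median identity of a member's transcript to its nearest other member was 94.9%, and 85 of 172 had a partner at 95% or more. All windows of 100 bases were unique to the gene among annotated transcripts for 103 members, and under 50% were for 5. How the authors' counting treated reads that match several genes is not given in the sources used here, so levels of near-identical members are uncertain.

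The following 2 pairs of relatives are shown because 1 gene of each pair led a library while its relative did not. The lines give the last 300 bases of the annotated GENCODE transcript, 5′ to 3′, from near the end of the signal peptide to the end of the variable segment, and capitals mark the bases that differ from the relative. Igkv9-124 (chr6:67942074-67942540, minus strand) and Igkv9-120 (chr6:68049983-68050456, plus strand) differ at 12 of these 300 bases. Igkv17-127 (chr6:67861153-67861659, plus strand) and Igkv17-121 (chr6:68036812-68037318, plus strand) differ at 6.
Igkv9-124: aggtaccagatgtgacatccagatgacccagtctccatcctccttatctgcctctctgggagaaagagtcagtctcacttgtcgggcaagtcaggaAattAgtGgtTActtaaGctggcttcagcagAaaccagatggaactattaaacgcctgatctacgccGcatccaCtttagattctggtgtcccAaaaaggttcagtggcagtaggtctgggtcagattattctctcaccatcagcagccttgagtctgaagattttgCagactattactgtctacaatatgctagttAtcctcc
Igkv9-120: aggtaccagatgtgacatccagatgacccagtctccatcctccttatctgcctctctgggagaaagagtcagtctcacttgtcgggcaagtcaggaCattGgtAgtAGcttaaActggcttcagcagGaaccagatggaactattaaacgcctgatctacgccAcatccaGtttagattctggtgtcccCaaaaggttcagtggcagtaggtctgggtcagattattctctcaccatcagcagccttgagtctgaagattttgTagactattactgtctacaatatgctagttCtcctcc
Igkv17-127: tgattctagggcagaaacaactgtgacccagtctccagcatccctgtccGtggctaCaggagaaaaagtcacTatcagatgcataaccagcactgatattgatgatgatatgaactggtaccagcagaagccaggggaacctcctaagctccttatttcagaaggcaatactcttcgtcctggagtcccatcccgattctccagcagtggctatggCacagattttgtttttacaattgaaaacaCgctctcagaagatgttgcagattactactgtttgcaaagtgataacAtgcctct
Igkv17-121: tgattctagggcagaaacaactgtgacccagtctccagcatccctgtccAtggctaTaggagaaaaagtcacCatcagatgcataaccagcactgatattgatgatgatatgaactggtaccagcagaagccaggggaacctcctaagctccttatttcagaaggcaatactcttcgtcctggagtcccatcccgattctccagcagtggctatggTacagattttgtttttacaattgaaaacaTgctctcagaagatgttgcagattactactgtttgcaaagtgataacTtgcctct

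The levels of these relatives moved together in some libraries and apart in others. In Het1, Het2, Het3 and Het4, Igkv9-124 stood at 1.38, 40.9, 1870.3 and 8.60 TPM and Igkv9-120 at 1.90, 9.47, 136.4 and 52.9 TPM. In KO1 to KO4, Igkv9-124 stood at 9.95, 2.84, 0.800 and 2.13 TPM and Igkv9-120 at 6.73, 5.91, 148.2 and 17.3 TPM. Igkv9-124 was thus far higher in Het3 than in any other library, and Igkv9-120 was highest in KO3 and Het3. Igkv17-127 was highest in KO3 at 636.6 TPM, where Igkv17-121 stood at 263.7 TPM, but the relative was the higher of the pair in 4 libraries: Het1 (25.8 against 22.6 TPM), Het2 (194.0 against 52.2), KO1 (157.9 against 21.6) and KO2 (98.9 against 65.8).

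The 4 members called by genotype with the smallest adjusted p, described further on, and Ighv9-3, the leading heavy chain gene of Het3, are shown next. In these lines capitals mark the last match to TANTNCTG, where N is any base. In the 5 genes shown it covers the codons for a tyrosine and for a tyrosine or phenylalanine, and the first bases of the cysteine that closes the disulfide bond of the variable domain, just before the joint to the D or J segment. Positions in GRCm38 are chr6:70074024-70074603 for Igkv6-32, chr12:114682632-114683065 for Ighv1-18, chr12:113931953-113932382 for Ighv14-1, chr12:114262652-114263087 for Ighv3-5 and chr12:114140692-114141122 for Ighv9-3, all on the minus strand.
Igkv6-32: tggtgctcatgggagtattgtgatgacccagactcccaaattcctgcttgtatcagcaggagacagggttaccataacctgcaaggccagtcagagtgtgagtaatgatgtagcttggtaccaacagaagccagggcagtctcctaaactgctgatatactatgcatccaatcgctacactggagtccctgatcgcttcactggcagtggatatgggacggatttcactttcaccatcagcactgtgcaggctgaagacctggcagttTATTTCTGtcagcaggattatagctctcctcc
Ighv1-18: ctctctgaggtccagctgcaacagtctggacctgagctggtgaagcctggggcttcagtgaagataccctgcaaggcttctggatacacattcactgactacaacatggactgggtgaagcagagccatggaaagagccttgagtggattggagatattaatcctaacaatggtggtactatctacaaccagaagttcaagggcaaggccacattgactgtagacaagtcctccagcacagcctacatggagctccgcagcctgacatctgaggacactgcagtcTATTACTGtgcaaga
Ighv14-1: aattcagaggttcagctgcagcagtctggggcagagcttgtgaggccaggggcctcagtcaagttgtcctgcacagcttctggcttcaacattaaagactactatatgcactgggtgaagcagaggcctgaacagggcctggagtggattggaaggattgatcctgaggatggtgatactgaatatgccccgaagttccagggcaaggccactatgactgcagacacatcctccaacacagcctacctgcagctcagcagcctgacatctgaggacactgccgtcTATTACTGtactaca
Ighv3-5: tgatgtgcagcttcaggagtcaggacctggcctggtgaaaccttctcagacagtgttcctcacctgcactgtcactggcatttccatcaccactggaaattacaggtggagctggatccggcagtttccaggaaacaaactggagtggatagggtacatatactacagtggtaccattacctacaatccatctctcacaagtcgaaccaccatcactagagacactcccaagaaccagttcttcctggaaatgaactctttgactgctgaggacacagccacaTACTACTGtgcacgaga
Ighv9-3: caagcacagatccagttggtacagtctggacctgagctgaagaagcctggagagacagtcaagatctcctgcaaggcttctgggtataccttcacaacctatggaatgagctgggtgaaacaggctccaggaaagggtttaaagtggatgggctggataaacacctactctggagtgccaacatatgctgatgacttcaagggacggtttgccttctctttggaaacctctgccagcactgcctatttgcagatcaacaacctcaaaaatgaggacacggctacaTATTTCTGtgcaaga

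TANTNCTG was found in the last 60 bases of 157 of 172 member transcripts (91.3%). On the opposite strand it was found in 10. Of 11435 other genes with a transcript of 338 to 480 bases, 2.00% held it on the transcript strand and 1.70% on the other. A match is a description of the letters and of no more than that.

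Recovered depth was 17884091 to 26415660 reads per library (KO1 the lowest), and 3 reads on a gene of 350 bases were worth 0.524 to 0.934 TPM. Intervals and floors in reads cover counting error only. Tex15, the targeted gene, stood at 2.27 to 2.81 TPM among heterozygotes and 0.870 to 1.23 TPM among knockouts, without overlap, but was not called (limma adjusted p = 0.794). Het1 stood apart in Omp, the olfactory marker protein of mature sensory neurons, at 66.7 TPM against 571 to 943 TPM elsewhere, but was the lowest library for none of the other 5 vomeronasal neuron genes: Gnai2, for example, stood at 175.5 TPM in Het1 within a range of 113.6 to 301.9 TPM. In KO1 2988 genes were listed at 0, and elsewhere 1287 to 1808. Nothing in the labels says how the animals were related, so spread between libraries is taken as spread between mice.

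The presence of antibody-secreting cells was checked on marker genes. Jchain, which links IgA and IgM units, stood at 306.2 to 1216.1 TPM, Xbp1, the transcription factor of the secretory programme, at 90.4 to 174.7 TPM, and Sdc1, the plasma cell surface marker CD138, at 31.2 to 78.4 TPM. Sdc1 and Xbp1 are also made by epithelium. The rest of the 15 plasma cell genes ranged widely. Txndc5 stood at 33.5 to 115.8 TPM, Derl3 at 6.89 to 32.5, Tent5c at 8.90 to 19.1 and Fkbp11 at 7.44 to 16.3. Mzb1 stood at 2.26 to 9.68 TPM, Irf4 at 0.735 to 3.31, Prdm1 at 0.986 to 4.18 and Tnfrsf17 at 0.717 to 3.83. Of the B cell genes, Ms4a1 stood at 0.324 to 7.51 TPM and Cd79a at 4.01 to 14.5 TPM, and both were above 0 in every library. Pigr, the receptor that carries IgA across epithelium, stood at 209.8 to 801.3 TPM. IgA was not the major class everywhere: in all 4 heterozygous libraries the summed IgG constant genes exceeded Igha, as described further on. The genes are therefore called immunoglobulin variable genes here, without the term mucosal.

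Summed over all members, variable genes stood at 2958.3, 5956.4, 16434.5 and 10424.3 TPM in Het1 to Het4 and at 6137.5, 2999.5, 6841.8 and 5784.7 TPM in KO1 to KO4. Het3 was the highest, Het1 and KO2 were the lowest, and the groups overlapped. Heterozygous libraries averaged 8943 ± 5861 TPM and knockout libraries 5441 ± 1686 TPM (SD, n = 4), a log2 ratio of means of −0.72. Being a sum over chosen members it was given no test. Without Het3 the log2 ratio was −0.24. As a difference of mean log2 sums it was −0.51 over all libraries, and 0.0092 when taken within each sex and averaged. That average joins opposite directions. The female KO1 lay just above Het2 and below Het3 and Het4, while the males KO2 to KO4 all lay above Het1. Each sex had only 1 mouse of 1 genotype, so a genotype difference within a sex cannot be told apart from that mouse. In a bulk sample, fewer cells of a type and less RNA per cell cannot be told apart.

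Sex ran across the groups unevenly, so a difference in the sums by sex cannot be told apart from one by genotype. Among knockouts the female KO1 (6137.5 TPM) lay within the male range (2999.5 to 6841.8 TPM). Among heterozygotes the only male, Het1, was the lowest. Female libraries held 5956.4 to 16434.5 TPM (median 8280.9) and male libraries 2958.3 to 6841.8 TPM (median 4392.1). The ranges overlapped because the male KO3 lay above the females Het2 and KO1. Het3, highest for variable genes, also had the highest summed level of the T cell list (113.6 TPM against 41.0 to 95.6) and of the vomeronasal neuron list (1357.6 TPM against 314.9 to 1201.3). The plasma cell, constant gene, J segment, germinal centre and neutrophil lists were highest there too. Other lists were not: B cells (55.2 TPM, 33.2 in Het3) and red cells (20929.5 TPM, 4521.4 in Het3) were highest in Het2, macrophages in KO3 and IgA export and recruitment in KO4. Het1 was the lowest for the T cell list. The part of tissue makeup in the sums was not tested. Within the 6 libraries of the higher title series the log2 ratio was −1.30, and the lower series held heterozygous libraries only.

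The balance of the 3 loci was much steadier than their level. Kappa genes made up 54.5% to 66.0% of member TPM, heavy chain genes 28.1% to 40.5% and lambda genes 3.43% to 5.93%. Lambda genes held 5.69% to 9.58% of light chain variable TPM. Heterozygous and knockout means were 5244 ± 3076 and 3112 ± 898 TPM for Igkv, 3239 ± 2521 and 2080 ± 713 TPM for Ighv, and 460 ± 304 and 249 ± 101.9 TPM for Iglv (SD, n = 4). Groups overlapped in all 3 loci.

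**Figure D1:**
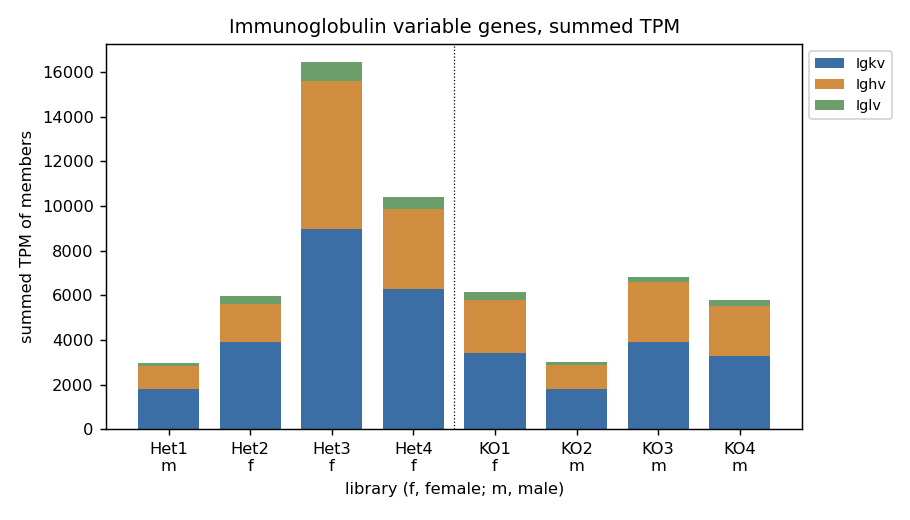
Stacked bars give the summed TPM of the Igkv, Ighv and Iglv members in each of the 8 libraries, with the sex of the mouse under each name and a dotted line between heterozygous and knockout libraries. Het3 reaches 16434.5 TPM, while Het1 and KO2 stay at 2958.3 and 2999.5 TPM, and the kappa, heavy and lambda parts keep a like proportion.

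The variable gene sums were set against the matching constant genes. The ratio of summed Igkv to Igkc, the single kappa constant gene, was 0.700 to 0.971, and that of summed Ighv to all heavy chain constant genes 0.952 to 1.39. The member sum was 8.47 to 13.5 times the level of Jchain. The ratio of summed Iglv to the lambda constant genes Iglc1, Iglc2 and Iglc3 ran more widely, from 1.029 in KO1 to 2.71 in Het4. Groups overlapped in each of these ratios.

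Which genes made up the sum differed from library to library. The leading kappa gene was Igkv6-32 in Het1 (20.3% of Igkv TPM), Igkv10-96 in Het2 (11.1%), Igkv9-124 in Het3 (20.9%) and Igkv10-94 in Het4 (9.95%). In the knockout libraries it was Igkv6-25 in KO1 (13.8%), Igkv1-117 in KO2 (7.52%), Igkv17-127 in KO3 (16.4%) and Igkv10-96 in KO4 (12.9%). Thus 7 genes led the 8 libraries, and Igkv10-96 alone led in 2, 1 of each genotype. Each leading share rested on 662 (KO2) to 6060 (Het3) recovered reads, and for Igkv9-124 in Het3 the share of reads was 20.1% (Wilson 95% interval 19.7% to 20.6%). The largest kappa share averaged 15.6% ± 5.8 for heterozygotes and 12.6% ± 3.7 for knockouts (SD, n = 4), with overlap. The difference of −2.91 percentage points was −1.13 without Het3 and −4.78 without Het4.

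For the heavy chain, Ighv1-22 led in Het1 (10.1% of Ighv TPM), Ighv14-2 in Het2 (11.8%), Ighv9-3 in Het3 (15.5%) and Ighv1-9 in Het4 (7.88%). Ighv3-6 led in KO1 (14.7%), Ighv14-2 in KO2 (12.1%), Ighv1-80 in KO3 (16.6%) and Ighv1-26 in KO4 (8.58%). The lambda locus was the exception to this variety. Iglv1 was first in all 8 libraries with 66.5% to 94.2% of Iglv TPM, at 74.4, 331.5, 752.3 and 467.8 TPM in Het1 to Het4 and 329.7, 97.1, 211.1 and 258.7 TPM in KO1 to KO4. With only 3 lambda members, the choice there is narrow. Iglv1 had the highest mean of all members (315.3 TPM), and its groups overlapped.

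**Figure D2:**
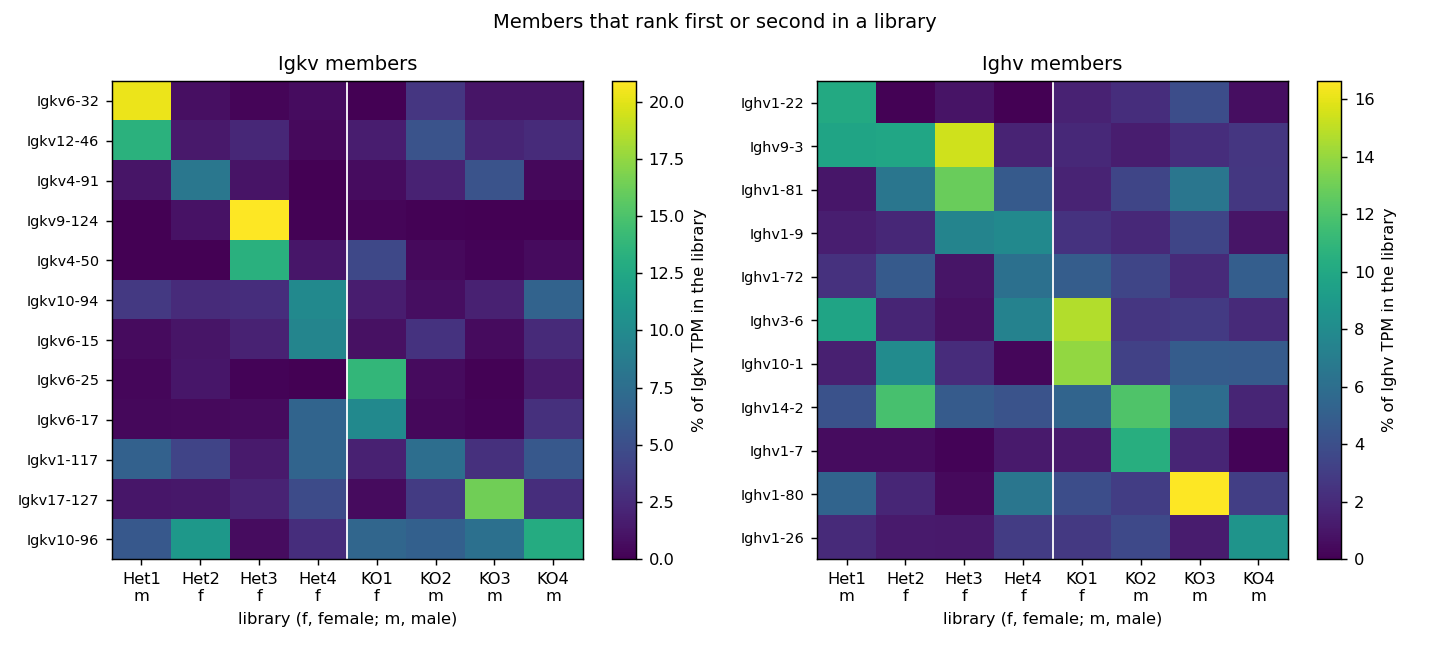
Colour gives the percent of Igkv TPM (left) or Ighv TPM (right) that a gene held in each library, for genes ranked first or second in at least 1 library, ordered by the library where they were highest. The bright cells fall on different genes in different libraries, as with Igkv6-32 in Het1 (20.3%), Igkv9-124 in Het3 (20.9%) and Ighv1-80 in KO3 (16.6%).

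Several of the 10 members with the highest mean owed it to 1 library. Igkv4-50 stood at 1184.2 TPM in Het3 and 1.39 to 156.7 TPM in the others, Ighv9-3 at 1028.0 against 14.03 to 165.1, Igkv1-110 at 994.6 against 90.1 to 195.9, and Ighv1-81 at 852.6 against 10.4 to 177.5. Igkv10-96 was spread more widely, from 62.2 TPM in Het3 to 436.4 TPM in Het2. Igkv10-94 was highest in Het4 at 625.6 TPM, and Igkv1-117 in Het4 at 422.3 TPM with 66.5 to 189.3 TPM elsewhere.

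Counted over all members, 65 of 172 had at least 50% of their summed TPM in 1 library and at least 10 TPM there. Among all 20305 genes with a mean of 0.5 TPM or more the count was 107, or 0.527%. Of the 65, 27 were Igkv and 38 Ighv genes, and none was Iglv. The library was Het3 for 25, Het4 for 15, KO3 for 8, KO4 for 7, Het2 for 5, KO1 for 3, and Het1 and KO2 for 1 each. Since Het3 and Het4 also had the highest sums, the count was repeated on shares of the locus, which gave 45 Igkv and Ighv members. These were spread more evenly, from 2 in KO2 to 8 in each of KO3 and KO4, with 6 in Het3.

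Among the 12 of these 65 members with the highest level were Igkv9-124 with 96.6% of its TPM in Het3, Igkv6-25 with 77.2% in KO1 (473.8 TPM, 3.72 to 49.3 elsewhere) and Igkv6-15 with 58.3% in Het4 (596.9 TPM, 10.7 to 177.7 elsewhere). Igkv15-103 (624.6 TPM), Ighv8-8 (449.5 TPM) and Igkv4-57 (386.3 TPM) were highest in Het3, and Igkv5-48 (361.5 TPM) in Het4. Of less abundant heavy chain genes, 2 are named after their values were seen: Ighv2-6-8 at 86.9 TPM in Het3 and at most 0.804 TPM elsewhere, and Ighv1-77 at 356.9 TPM in Het3 and at most 11.1 TPM elsewhere. Detection was nonetheless widely shared, with 109 members at 3 or more reads in all 8 libraries and 130 (75.6%) in 7 or 8.

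The spread between libraries of 1 genotype was accordingly wide. The median within-group SD of log2(TPM + 0.5) was 1.61 over members, against 0.442 over all tested genes. For 7511 other genes with a mean TPM between the members' quartiles it was 0.428. Pairs of libraries shared 34.6% to 45.7% of their Igkv composition within the heterozygous group, 43.0% to 64.6% within the knockout group and 36.5% to 56.4% between groups, where the share is the sum over genes of the smaller of both percentages. For Ighv the ranges were 39.9% to 54.5%, 45.0% to 56.4% and 33.8% to 57.3%. These pairs reuse the same 8 libraries, so they were given no test.

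Evenness was summarised as the effective number of genes, computed as e raised to the Shannon entropy of member shares, which equals the number of genes if all were equally abundant. It was 52.7, 63.2, 47.6 and 62.8 in Het1 to Het4 and 57.7, 77.2, 61.3 and 78.0 in KO1 to KO4. KO2 and KO4 were the most even and Het3 the least, and the groups overlapped. Means were 56.6 ± 7.7 and 68.6 ± 10.6 (SD, n = 4), a difference of 11.99, to which no test was applied. By locus the means were 28.1 ± 6.0 and 33.8 ± 4.8 for Igkv and 30.6 ± 4.3 and 36.3 ± 8.1 for Ighv.

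The number of members needed to reach 50% of the member TPM ran from 9 in Het3 to 20 in KO4. The 10 highest members of a library held 34.1% (KO4) to 52.6% (Het3). By library, 143 to 156 members had at least 3 reads, with means of 149.5 for heterozygotes and 149.8 for knockouts. Thinned to the 13320 member reads of KO2, the shallowest library, 147.3 to 161.5 members were expected to be seen at all.

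**Figure D3:**
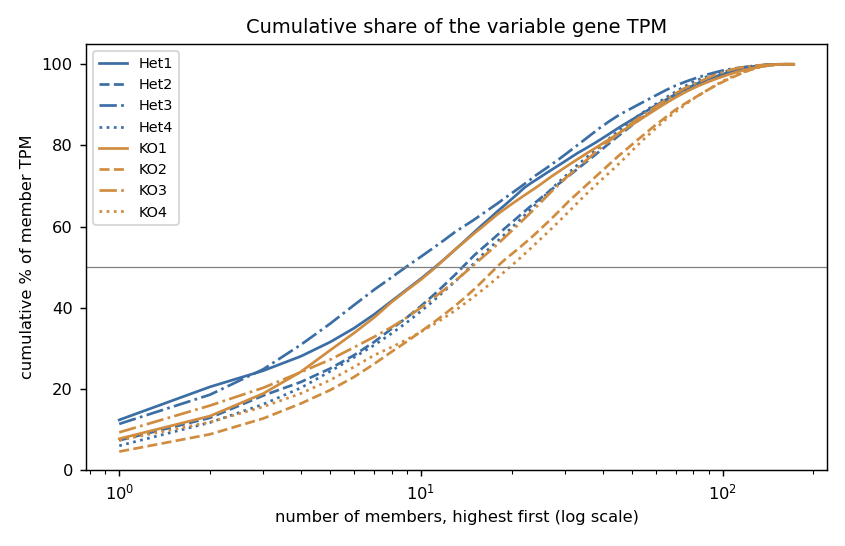
Each line adds up the percent of member TPM held by the members of 1 library from the highest down, with the number of members on a log axis, heterozygous libraries in blue and knockout libraries in orange. Het3 crosses the grey line at 50% first, with 9 members, and KO4 last, with 20.

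Families, named by the number after the locus, showed the same mixture of common ground and single-library peaks. Ighv1, with 48 members, was the largest family and held 53.1% of Ighv TPM over all libraries, between 45.6% in KO1 and 65.9% in Het4. Among kappa families, Igkv4 (21 members) held 18.7%, Igkv6 (9 members) 14.9% and Igkv1 (7 members) 11.7%. Igkv9 held 22.4% in Het3 and 0.182% to 3.90% elsewhere. Ighv9 held 10.1%, 10.01% and 15.6% in Het1 to Het3 and 1.92% to 2.88% in the other 5 libraries. Every family's share overlapped between genotypes.

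Parts of a locus by distance to the J segments also overlapped between genotypes. The 26 Igkv members farthest from the J segments (1.95 to 3.11 Mb away) held 27.1% to 61.8% of Igkv TPM and the 27 nearest 14.7% to 47.8%. In the Ighv locus the farthest 29 held 18.7% to 43.4% and the nearest 30 held 29.1% to 38.3%. Igkv members on the plus strand, whose orientation decides how the DNA between them and the J segments is rearranged, held 31.5% ± 5.3 of Igkv TPM among heterozygotes and 43.4% ± 8.4 among knockouts (SD, n = 4), with overlap.

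Genotype was then tested gene by gene with limma, with sex as a term, over all 20305 genes at a mean of 0.5 TPM or more, and fold changes are given relative to the median gene, whose own difference was 0.19 (log2, knockout minus heterozygous) as deposited and −0.011 after median-ratio scaling. The SE, p and adjusted p printed beside a fold change are those of the difference as deposited, before that shift was taken off. Of 172 members, 7 were called (adjusted p under 0.05), of which 4 rose and 3 fell in the knockout. The 4 include Ighv3-5, which reached the mean of 0.5 TPM through knockout libraries only. Over all tested genes the called share was 0.586% (119 genes, 43 higher and 76 lower). The balance of direction was not stable: median-ratio scaling and limma-voom on recovered reads each called 0 higher and 2 lower, and the higher title series, without the sex term, 3 higher and 14 lower. All tested genes leaned the same way, with 28 higher and 127 lower, 12 and 96, and 32 and 151 in these fits. The median member change was 0.039, but it moved with the design: −0.334 without the sex term and −0.599 in the higher title series. With 1 library left out it ran from −0.602 (without Het1) to 0.637 (without KO1). At an unadjusted p under 0.05 there were 40 members, 27 higher and 13 lower, against 3.10% of all tested genes (630). Without the sex term 40 members again passed, not all of them the same genes, with 16 higher and 24 lower, against 281 and 328 of all tested genes. In the higher title series 73 members divided into 16 higher and 57 lower, against 191 and 601 of all tested genes. By their means, 7 members reached 0.5 TPM through knockout libraries only and 3 through heterozygous libraries only, and such members had to differ. Since members of 1 library come from the same cells, they are not independent of each other.

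Ighv1-18 was lower in knockout. It stood at 68.6, 56.2, 119.5 and 83.3 TPM in Het1 to Het4 and at 23.3, 6.42, 16.4 and 8.55 TPM in KO1 to KO4. Every knockout library lay below every heterozygous one. The fitted log2 difference was −2.48 (SE 0.40, limma adjusted p = 0.00498), and without Het1 it was −1.73 (adjusted p = 0.39). Its nearest relative, Ighv1-26, is 96.9% identical, and every 100-base window of Ighv1-18 was unique.

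Igkv6-32 was called lower on the strength of 2 libraries. Its levels were 365.9, 33.3, 24.4 and 42.2 TPM in Het1 to Het4 and 1.98, 59.8, 46.3 and 37.9 TPM in KO1 to KO4. Outside Het1 and KO1 the genotypes overlapped between 24.4 and 59.8 TPM. The fitted log2 difference was −3.53 (SE 0.35, limma adjusted p = 3.73e-05), but without the sex term it was −1.55 and the adjusted p was 1.0. Het1, the male heterozygote, and KO1, the female knockout, each have a weight of 0.5 in that fit because sex is unevenly spread.

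Ighv14-1 was also called lower. It stood at 70.5, 41.7, 38.2 and 127.1 TPM in Het1 to Het4 and at 0, 3.09, 1.07 and 57.2 TPM in KO1 to KO4. KO4 lay within the heterozygous range and the other knockout libraries below it. The fitted log2 difference was −5.32 (SE 0.91, limma adjusted p = 0.0053). Without KO1 it was −3.83 (adjusted p = 0.196), and after median-ratio scaling −5.37 (adjusted p = 0.22).

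The 4 members called higher had most of their TPM in knockout libraries. Ighv3-5 is 1 of the 7 members that reached the mean of 0.5 TPM through knockout libraries only, so its difference is given as a description. It had 0, 1, 0 and 0 reads in Het1 to Het4 (0.197 TPM in Het2) and 7.02, 4.02, 0.533 and 6.38 TPM in KO1 to KO4. Every knockout library was above every heterozygous one, although KO3 rested on 2 reads. With 67 reads in knockout against 1 in heterozygous libraries the depth-scaled ratio was 73.2, with an exact 95% interval of 12.7 to 2934. The limma adjusted p was 0.00373, and it rose to 0.104 without KO1 and 0.144 after median-ratio scaling. The choice of members fixed the direction, so neither the interval nor this p is evidence on genotype. The interval also takes reads, not mice, as its unit.

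Ighv1-39 stood at 9.22, 3.57, 19.2 and 8.16 TPM in Het1 to Het4 and 101.2, 19.0, 22.0 and 25.1 TPM in KO1 to KO4. The overlap was slight, with KO2 just below Het3. The fitted log2 difference was 2.17 (SE 0.52, limma adjusted p = 0.0375), and without KO1, the highest library, 0.74 (adjusted p = 0.818). Median-ratio scaling gave an adjusted p of 0.415.

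Ighv1-36 stood at 0.870, 0.595, 0.310 and 2.23 TPM in Het1 to Het4 and 21.5, 5.23, 18.8 and 1.34 TPM in KO1 to KO4, overlapping through Het4 and KO4. Its fitted log2 difference was 2.87 (SE 0.66, limma adjusted p = 0.0331), and the call was lost without KO1 (1.64, adjusted p = 0.814) and after median-ratio scaling (2.91 with an SE of 0.92, adjusted p = 0.592). Ighv1-37 stood at 0 in Het1 to Het3 and 2.23 TPM in Het4, and at 12.7, 4.76, 1.07 and 66.0 TPM in knockout libraries. Summed reads were 9 against 314, a depth-scaled ratio of 38.1 (exact 95% interval 19.8 to 84.1). Of the knockout reads 247 were in KO4, and without that library the ratio was 11.2 (5.58 to 25.7). Its limma adjusted p was 0.0435, rising to 0.556 after median-ratio scaling, 0.167 without Het1 and 0.1005 without KO1. Ighv1-37 is 98.6% identical to Ighv1-20, and 84.9% of its windows were unique, so its level is uncertain. Calls near the threshold also moved with smaller choices: with a pseudocount of 0.1 the adjusted p was 0.0619 for Ighv1-36 and 0.0663 for Ighv1-39, and with a pseudocount of 1 it was 0.0754 for Ighv1-37. Without the sex term it was 0.0709 for Ighv1-36 and 0.167 for Ighv1-39.

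**Figure D4:**
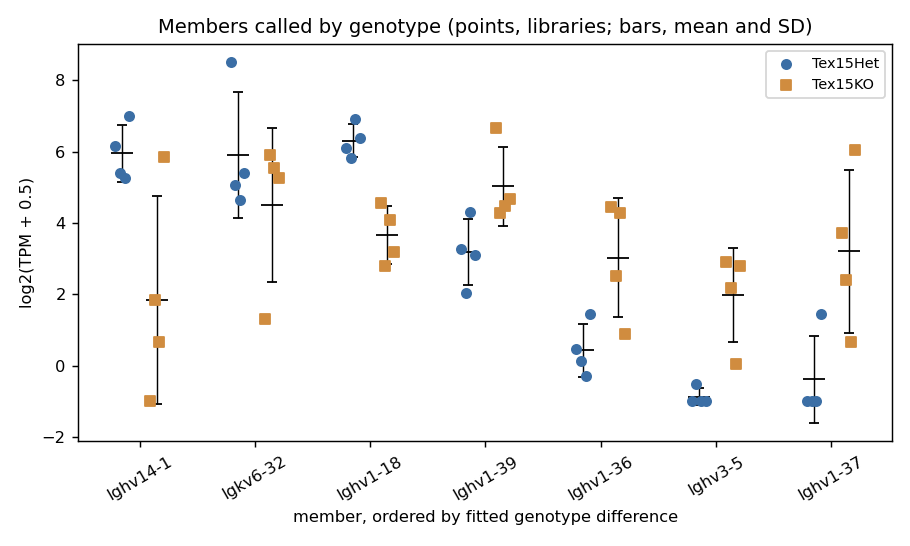
Points give log2(TPM + 0.5) in each library for the 7 members called by genotype, circles for heterozygous and squares for knockout libraries, and black bars the mean and SD of each group (n = 4). Ighv1-18 and Ighv3-5 separate the groups, but Ighv3-5 reached the mean of 0.5 TPM through knockout libraries only and so had to differ. In Igkv6-32 only Het1 and KO1 stand away from the other libraries.

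Regardless of calls, the groups did not overlap in 6 members. Over all tested genes the share without overlap was 1.40% (284 genes). Ighv9-3, Ighv1-18 and Igkv3-4 were lower in all knockout libraries and Igkv8-27, Ighv3-5 and Ighv2-4 higher. Ighv9-3, whose sequence is given above, ranged from 58.8 to 1028.0 TPM among heterozygotes and 14.03 to 58.7 TPM among knockouts, so the gap between Het4 and KO3 was very small, and it was not called (limma adjusted p = 0.801). Ighv2-4 was at 0 in every heterozygous library and 0.239 to 4.03 TPM in knockout libraries. Like Ighv3-5 it passed the mean of 0.5 TPM through the knockout libraries only, so both had to differ, and the count of 6 includes them.

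For sex, 1 of 172 members was called, against 0.0492% of all tested genes (10 genes). It was Igkv6-32, fitted 3.87 higher on the log2 scale in males (limma adjusted p = 3.15e-06). Its highest level was in the male Het1 and its lowest in the female KO1, the same libraries on which its genotype call rests.

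The constant genes of the same antibodies, the plasma cell genes and the other cell type lists gave 0 calls among 94 tested genes (limma). At an unadjusted p under 0.05 there were 5, where 3.10% of all tested genes were: Ighg1, Iglc1 and Omp with a positive and Ighg2c and Igkj1 with a negative genotype coefficient in the fit with sex. Igkc, the kappa constant gene, stood at 2582.5 to 9217.2 TPM among heterozygotes and 2146.5 to 4168.9 TPM among knockouts, with a fitted log2 difference of −0.40 (SE 0.37, limma adjusted p = 0.9995). Jchain changed by −0.048 (SE 0.36, adjusted p = 0.9995) and Igha by 0.27 (SE 0.44, adjusted p = 0.9995). None of the 15 plasma cell genes passed at an unadjusted p under 0.05, and their median change was 0.11. The B cell list (8 of 12 genes tested) had a median change of −0.18, and its summed level was 12.4 to 55.2 TPM among heterozygotes and 10.9 to 38.4 TPM among knockouts.

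The share of Igha, the IgA constant gene, among heavy chain constant genes separated the groups. Igha held 47.9%, 27.4%, 39.2% and 45.6% of heavy chain constant TPM in Het1 to Het4 and 64.4%, 66.5%, 59.2% and 61.2% in KO1 to KO4. All 4 knockout libraries lay above all 4 heterozygous ones. Means were 40.0% ± 9.2 and 62.8% ± 3.3 (SD, n = 4). The difference of 22.8 percentage points had an exact two-sided permutation p of 0.0286, the smallest that 70 assignments can give, and 0.114 after adjustment over the 8 shares tested. This share was chosen after its values were seen.

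The sum of Ighg1, Ighg2b, Ighg2c and Ighg3, the IgG constant genes, moved the other way, as shares of 1 total must. It held 57.5% ± 7.7 among heterozygotes and 34.0% ± 3.6 among knockouts, without overlap (exact permutation p = 0.0286, adjusted 0.114, n = 4 per group). Most of it was Ighg2b, at 22.4% against 11.2%, and Ighg2c, at 32.1% against 19.98%. In TPM, summed IgG genes stood at 551.6, 1196.8, 3057.5 and 1874.3 in Het1 to Het4 and 647.4, 280.4, 758.3 and 631.2 in KO1 to KO4, with Het1 inside the knockout range. Igha stood at 481.4 to 2060.8 TPM and 618.9 to 1230.8 TPM, with overlap.

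Gene by gene, Ighg2c had a fitted log2 difference of −0.98 as deposited (SE 0.40, unadjusted p = 0.0254 and adjusted p = 0.9995, limma), or −1.17 relative to the median gene. Ighg2b had −1.09 as deposited (SE 0.57, unadjusted p = 0.0736), or −1.28 relative to the median gene, and neither was called. Relative to the median gene, Ighg2b stood at −2.22 without Het1 and −0.34 without KO1. The less abundant Ighg1 and Ighg3 had coefficients as deposited of 1.01 (SE 0.48, unadjusted p = 0.0477) and 0.92 (SE 0.95, unadjusted p = 0.343) in the limma fit with sex, and Iglc1, a lambda constant gene, one of 1.28 (SE 0.51, unadjusted p = 0.0214). Relative to the median gene they were 0.81, 0.73 and 1.09. The levels themselves did not lie higher in the knockout throughout. Ighg1 stood at 6.74, 78.6, 56.1 and 28.2 TPM in Het1 to Het4 and at 143.0, 14.1, 15.9 and 4.02 TPM in KO1 to KO4, so only KO1 was above the heterozygous range. Ighg3 had means of 45.2 and 5.997 TPM and medians of 4.27 and 3.48 TPM in heterozygotes and knockouts, with Het4 at 171.6 TPM. Iglc1 had means of 159.1 and 143.1 TPM and medians of 102.3 and 126.1 TPM. None of them was called by genotype, and Ighg1 was called by sex (limma adjusted p = 0.003). Within females, Igha held 64.4% in KO1 against 27.4% to 45.6% in Het2 to Het4, and within males 59.2% to 66.5% in KO2 to KO4 against 47.9% in Het1. Within the higher title series the difference was 20.4 percentage points. Ighm, the constant gene of IgM, held 1.10% to 5.27% and did not separate the groups. Every 100-base window of the 8 heavy chain constant genes was unique among annotated transcripts.

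**Figure D5:**
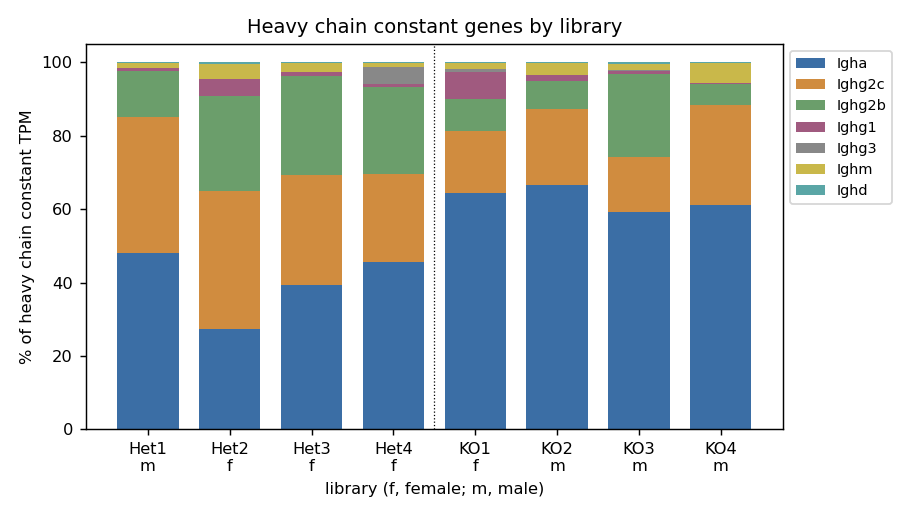
Stacked bars give the percent of heavy chain constant TPM held by each constant gene in the 8 libraries (Ighe, at most 0.0068%, is not drawn). Igha fills 27.4% to 47.9% of the heterozygous bars and 59.2% to 66.5% of the knockout bars, with Ighg2c and Ighg2b making up most of the rest.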

How the data were processed

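The vomeronasal organ of 4 heterozygous and 4 knockout mice was measured by polyA-selected, strand-specific RNA sequencing, per the labels' protocols. The authors deposited 1 table of TPM values (transcript abundances scaled to a common sum) with 1 column per library, and replicates were not pooled. The submitters' processing notes name Trim Galore 0.6.5, cutadapt 5.1, STAR 2.7.11b, deepTools 3.5.5 and the builds mm10 and GRCm38. The counting program, its treatment of reads matching several genes and any filter are not given in the sources used here. Reads of a V(D)J-rearranged transcript that span the joint or carry hypermutation can fail to map to germline segments, and how much was lost was not tested.

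Reads were recovered by multiplying each TPM value by the summed exon length in GENCODE M21 and estimating the worth of 1 read per library. Of low values per library (up to 30 reads), 97.6% to 98.1% fell within 0.05 of a whole number, as did 539 of 539 for variable genes. Recovery reached 97.1% of genes. The 803 others were left out of read-based values.

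Genotype was tested with limma 3.58.1 in R 4.3.3 on log2(TPM + 0.5), with sex as a term and a variance trend. Fold changes relative to the median gene carry the SE and p of the unshifted coefficient. The Benjamini-Hochberg adjustment ran over all 20305 genes at a mean of 0.5 TPM or more. The script was tested on simulated counts with 1 common spread for all genes. The wider spread of the members between libraries was not simulated, so that test does not cover the member calls. Isotype shares were compared with exact two-sided permutation tests in scipy 1.17.1. Transcripts were aligned with biopython 1.88. Sums and evenness over members were given no test.

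The members and gene lists were chosen with earlier results of these data known. Named members were the 10 highest by mean TPM, the leading Igkv, Ighv and Iglv gene of each library, up to 12 with at least 50% of their TPM and 10 TPM or more in 1 library, up to 5 called in each direction, and the 3 on each side of the threshold, and others are named as noted. Alternatives were other pseudocounts, filters, scaling, designs, read-based values, the libraries of the higher title series and leaving out each library. The Igha share and its alternatives were added after seeing the data. A further gene of the lists is not reported here by name.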

Additional observations from a re-analysis of the deposited data

Results flagged for a closer look

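In some groups of 4 libraries, 1 library lay so far from its neighbour that the gap, divided by the group's range, exceeded Dixon's 95% critical value. Chance flags about 1 in 20 groups if values are normally distributed, which was not tested for these TPM values. Over all 172 members and both genotypes, 92 of 344 groups were past that value (26.7%), against 3.95% over all tested genes. On log2(TPM + 0.5) the shares were 6.40% (22 of 344) and 3.11%.

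Among heterozygous libraries, Het3 stood high for Igkv9-124 (1870 TPM), Igkv4-50 (1184 TPM), Ighv9-3 (1028 TPM), Igkv1-110 (994.6 TPM) and Ighv8-8 (449.5 TPM). Het4 stood high for Igkv1-117 (422.3 TPM), Ighv1-80 (234.8 TPM), Ighg3 (171.6 TPM) and Ighv1-37 (2.23 TPM), Het1 for Igkv6-32 (365.9 TPM), and Het2 for Ighd (9.75 TPM) and, on 1 read, Ighv3-5 (0.197 TPM).

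Among knockout libraries, KO1 stood high for Igkv6-25 (473.8 TPM), Ighv3-6 (343.8 TPM), Igkv4-50 (156.7 TPM), Ighg1 (143.0 TPM), Ighv1-39 (101.2 TPM) and Igkv5-48 (76.9 TPM). KO3 stood high for Igkv17-127 (636.6 TPM), Ighv1-80 (451.8 TPM) and Ighv1-81 (177.5 TPM), and KO4 for Ighm (100 TPM) and Ighv14-1 (57.2 TPM). KO2 stood low for Igkc (2147 TPM) and Igha (618.9 TPM).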

How the results depend on the processing

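The number of members called by genotype, 7, fell to 3 with no filter on mean TPM and to 2 with median-ratio scaling and to 2 with limma-voom on recovered reads, all of them among the 7. It rose to 17 in the higher title series with genotype alone, of which 2 were among the 7. With 1 library left out it ran from 8 (without KO1, of which 2 were among the 7) to 39 (without Het4, which included all 7). Over all tested genes the called share was 0.262% with no filter, 0.763% with median-ratio scaling, 0.534% with limma-voom, 0.901% in the higher title series, 0.576% without KO1 and 1.27% without Het4, against 0.586%. In each of these the cause was not tested. The replicate block with sex gave 10, of which 6 were among the 7; same-numbered libraries did not deviate together (correlations −0.061 to 0.097, and 2 of 8 libraries matched their own number best). Over the cell type and constant gene lists, 0 calls became 2 with the replicate block with sex, 2 in the higher title series with genotype alone and 0 to 3 with 1 library left out.

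The log2 ratio of summed TPM was −0.72, and −1.01 to −0.24 with 1 library left out. The mean of the log2 differences within each sex was 0.0092, an average of opposite directions in females and males. Igha reversed to −0.076 with genotype alone, and Jchain ran from −0.26 to 0.16 with 1 library left out. The effective number of genes (13 alternatives), the largest kappa share (10, from −4.78 to −1.13 percentage points with 1 library left out) and the Igha share (11) kept their direction. Among them only the Igha share was also compared within each sex. In females, KO1 lay inside the heterozygous range for the effective number (57.7 against 47.6 to 63.2) and the kappa share (13.8% against 9.95% to 20.9%). In males, KO2 to KO4 lay above Het1 in effective number (61.3 to 78.0 against 52.7) and below it in kappa share (7.52% to 16.4% against 20.3%). TPM carries no depth, and members with under 3 reads in a library are within counting error.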
